A study of Mus musculus with 30 samples.

Results

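The 9 genes described here build and regulate the MHC class I presentation pathway, and they are the rows H2-K1, H2-D1, B2m, Tap1, Tap2, Tapbp, Psmb8, Psmb9 and Nlrc5 of a table with 23013 mouse gene rows. They were chosen by name from their known function, and each Entrez gene number was turned into a symbol with a RefSeq table. The table came from 30 Seq-Well libraries, a single-cell RNA method in which cells and barcoded beads are paired in small wells, of 8 organs from 8 male DBA1/J mice. By the labels and methods, 4 mice had collagen-induced arthritis (CIA), induced with 100 µg of bovine type II collagen emulsified in adjuvant and a booster at day 20, and 4 were healthy. Among the CIA mice, S1 and S2 had an arthritis score of 8, S6 of 3 to 4 and S7 of 3, and the score was 0 in the healthy group (H3, H4, H6 and H7). Blood came from the 4 healthy mice and from S2, S6 and S7, and lymph node from the 4 healthy mice and from S1, S2 and S7. Spleen, thymus, lung, muscle and skin came from H6 and S1, and joint from H3 and S1, so those organs had 1 mouse per state. The mice were 8 to 12 weeks old by the study's methods. Blood was the mononuclear fraction of a density gradient, and organs were frozen and thawed before cells were loaded.

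MHC class I molecules show short peptides from inside the cell to CD8 T cells. A heavy chain, encoded at the classical loci by H2-K1 and H2-D1, pairs with the light chain beta-2 microglobulin (B2m). The immunoproteasome subunits Psmb8 and Psmb9 cut proteins into peptides that suit the binding groove. Tap1 and Tap2 form the transporter that carries those peptides into the endoplasmic reticulum, and tapasin (Tapbp) holds empty class I molecules next to it. Nlrc5 is the transactivator that drives class I genes from a shared set of promoter elements, and interferon gamma raises most of the pathway. In the thymus, cortical thymocytes are known for low surface class I.

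The places and sequences of these genes bear on how the values may be read. On GRCm38.p6, RefSeq places H2-K1 at chr17:33996012-34000619 on the minus strand and H2-D1 at chr17:35263094-35267497 on the plus strand. Tapbp lies at chr17:33919478-33929290, Psmb9 at chr17:34182030-34187330, Tap1 at chr17:34187556-34197225, Psmb8 at chr17:34198195-34201454 and Tap2 at chr17:34204479-34216321. B2m lies outside the complex at chr2:122147687-122153082, and Nlrc5 at chr8:94434335-94527272. The promoter windows of H2-K1, H2-D1 and B2m are shown because these are the genes whose levels the results turn on. Promoter sequences, of 250 bases before to 50 after the listed start, were found for 7 members and not for Tap2 and Nlrc5. H2-K1 is listed with more than 1 start, and the window used here is that of the start at 34000347, inside the gene range given above. The stretches below run 5′ to 3′ on the gene's own strand, and capitals mark letters that match the searched motifs.
H2-K1, chr17:34000359-34000457, minus strand: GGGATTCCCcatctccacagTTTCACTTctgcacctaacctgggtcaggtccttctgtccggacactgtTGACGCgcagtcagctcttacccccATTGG
H2-D1, chr17:35262924-35263022, plus strand: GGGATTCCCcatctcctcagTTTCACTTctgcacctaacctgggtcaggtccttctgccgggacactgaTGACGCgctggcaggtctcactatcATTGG
B2m, chr2:122147550-122147638, plus strand: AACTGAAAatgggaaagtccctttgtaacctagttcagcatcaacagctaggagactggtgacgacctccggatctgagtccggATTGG

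The H2-K1 and H2-D1 stretches matched at 88 of 99 bases. Both held an NF-kB-type GGGATTCCC, an interferon-response-type TTTCNNTT, an X2-type TGACGC and a Y-type ATTGG in the same order. Searched on both strands, these motifs were present in 0.353%, 23.9%, 7.40% and 37.4% of 32851 promoter windows of that length, and all 4 occurred together in 4 windows, those of H2-K1 (listed with 2 windows), H2-D1 and Zfp263. The B2m stretch held the interferon-response-type motif on the other strand (AACTGAAA) and ATTGG, and the latter was also present in the windows of Tap1, Tapbp and Psmb9. A GAS-type TTCNNNGAA, present in 8.30% of windows, was found in that of Psmb8 alone among the members. These matches are letters in a reference sequence, and no binding was measured.

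Reads were aligned to a C57BL/6 reference, which carries the H2b haplotype, whereas DBA/1 mice carry H2q. How many reads of the DBA1/J alleles found the H2-K1 or the H2-D1 row was not tested. In the reference, the last 500 bases of H2-K1 and H2-D1 shared 2 of 451 words of 50 bases (0.443%), and no other member shared a word with another gene. The RefSeq table lists each of the symbols H2-K1 and H2-D1 among the other gene's synonyms, so values are given for the rows under their own gene numbers, and the split between these 2 rows is uncertain. H2-L is not analysed here. In the GENCODE annotation, where the ranges of Tap1 and Psmb9 are wider than in RefSeq, Tap1 and Psmb9 overlap head to head, and Psmb8 and Tap2 overlap an antisense gene. B2m, Tapbp and Nlrc5 also overlap other genes there. Since the strand setting of the counting is not given in the sources used here, those rows are uncertain too. Reads came from the 3′ end of transcripts, and gene length was not taken into account, so values of one gene are compared between samples and levels are not compared between genes.

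Values are summed units of a smoothed signal scaled to 1000000 units per sample (UPM), with 1 sample per mouse and organ and 26 samples in all. The 30 libraries held 27 to 934 barcodes and 217494 to 7886790 units, and the fewest barcodes were in the blood of H3. A total of 13 barcode sequences occurred in more than 1 library. Globin rows took 3.75% to 58.8% of units in blood libraries, and levels of blood are therefore also given with globin units left out. Titles carry the suffix CIA or 2CIA with no stated meaning, and those of the spleen, lung, muscle, skin and suffix 2CIA joint libraries also end in (2), in both states and likewise unexplained. All CIA blood libraries ended in 2CIA, and in spleen, thymus, lung, muscle and skin the healthy library ended in CIA and the diseased one in 2CIA, so that suffix and state cannot be told apart there. Libraries also differed in how many rarely seen genes they kept, the genes whose largest value was 1 making up 5.25% to 58.1% of those above 0, and a 0 is given only as listed at 0. In all of these mixed-cell sums, fewer cells of a type and less RNA per cell cannot be told apart.

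H2-K1, H2-D1, B2m and Psmb8 were above 0 in 26 of 26 samples. The transporter and loading genes and Psmb9 were sparser, with Tapbp above 0 in 25 samples, Tap1 and Psmb9 in 23 each and Tap2 in 20. Nlrc5, the transactivator, was above 0 in 14 samples. The share of barcodes above 0 ran from 99.9% for H2-D1 and B2m to 84.1% for Psmb8, 45.7% for Psmb9 and 24.4% for Tap1, and it was lowest for Nlrc5. Over the 26 samples the median level was 1095 UPM for H2-K1, 2981 for H2-D1 and 1821 for B2m.

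The heavy chains and their light chain varied with organ, and thymus had the lowest levels of all 3 genes in both mice in which it was measured. H2-D1 was 632 UPM in the thymus of H6 and 859 UPM in that of S1. In the skin of the same mice it was 1236 and 1410 UPM. The other 22 samples lay between 1900 UPM, in the blood of H4, and 5350 UPM, in the muscle of H6. Thymus and skin thus stood below every other organ for H2-D1, with no overlap.

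H2-K1 showed the same low end, with 333 and 476 UPM in thymus and 501 and 735 UPM in skin. Blood of H4 and S2 reached down to 552 and 635 UPM, so skin and blood overlapped for this gene. Without globin units they did not, the lowest blood value being 850 UPM in H6, above 501 and 736 UPM in skin. The highest level of H2-K1, 2321 UPM, was again in the muscle of H6. B2m was 612 and 927 UPM in thymus and 685 and 1432 UPM in skin, and it overlapped with the healthy blood samples, of which H3 and H4 had 924 and 946 UPM. Without globin units the blood of H6 and H3 had 1157 and 1189 UPM of B2m, above both thymus samples and below the skin of S1. The highest B2m level, 3075 UPM, was in the blood of S6.

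**Figure D1:**
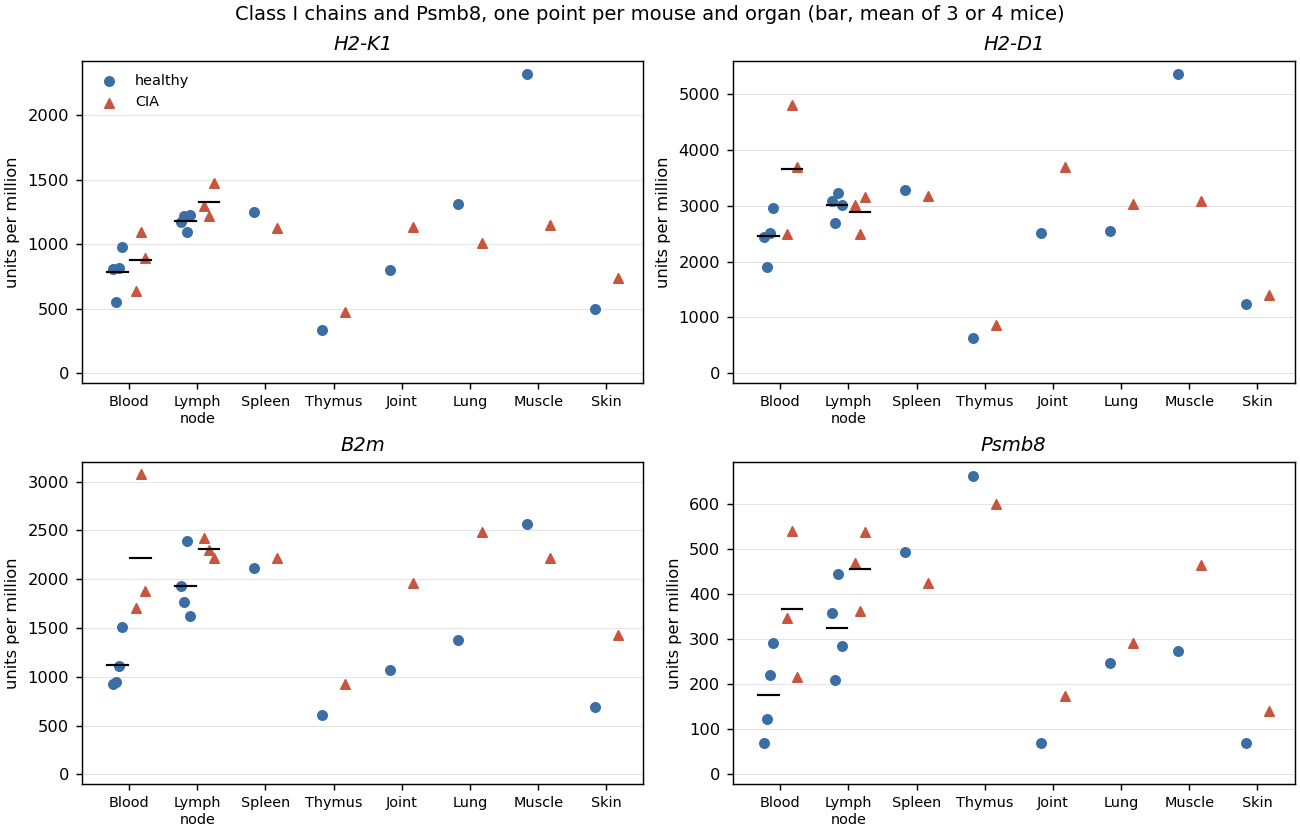
Levels of H2-K1, H2-D1, B2m and Psmb8 (UPM, linear axis) by organ, with 1 point per mouse and organ coloured by state. The 2 thymus samples are at the bottom of the H2-D1 panel at 632 and 859 UPM, and the muscle sample of H6 is at the top at 5350 UPM.

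Ordered by the organ means, H2-D1 fell from muscle (4220 UPM) through spleen (3225), joint (3097), blood (2968), lymph node (2952) and lung (2780) to skin (1323) and thymus (746). The spread that a repeat library can give was read from 4 samples sequenced as a pair of libraries, and it reached 0.76 on the log2 scale for H2-D1. The steps from lung to skin (1.07) and from skin to thymus (0.82) were larger than that spread between libraries, and the samples on either side of both steps did not overlap. The other 5 steps were smaller. For H2-K1 the step from skin to thymus (0.60) was larger than the largest repeat difference of 0.54, but that difference was 0.79 with globin units left out, so the step was not beyond it on both scales. The B2m steps from joint to skin (0.52) and from skin to thymus (0.46) exceeded its repeat difference of 0.38, but the samples of these neighbours overlapped. Repeat libraries hold no difference between mice, and with 1 mouse per state in most organs the spread between mice could not be set beside these steps. For these 3 genes the remaining steps were within the spread of repeat libraries.

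Psmb8, the immunoproteasome subunit that replaces Psmb5, had its highest sample levels in thymus and, like the heavy chains, was low in skin. It was 662 UPM in the thymus of H6 and 599 UPM in that of S1, and the next highest samples were the blood of S6 with 539 UPM and the lymph node of S7 with 538 UPM. One of the pair of S7 lymph node libraries had 618 UPM, above the thymus of S1. Its lowest values were 69.0 UPM in the blood of H3, 70.2 UPM in the joint of H3 and 70.6 UPM in the skin of H6. Within each of H6 and S1, which gave 7 organs each, thymus was the lowest organ for H2-K1, H2-D1, B2m and Tapbp and the highest for Psmb8 and Tap2.

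The ratio of Psmb8 to the sum of H2-K1 and H2-D1 was 0.686 in the thymus of H6 and 0.448 in that of S1. In the other 24 samples it ran from 0.0213 to 0.116, the highest being the lymph node of S7. The lower thymus value was 3.86-fold above that sample, a gap of 1.95 on the log2 scale. Repeat libraries of a sample differed in this ratio by 0.04 to 2.11 on the log2 scale, the most in the joint of S1 with 0.133 and 0.0308. The gap of 1.95 was thus within the largest repeat difference, though neither of those joint libraries reached the thymus values. Each state had 1 thymus, so no test was made. Both thymus samples held 10 of 10 thymocyte markers.

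**Figure D2:**
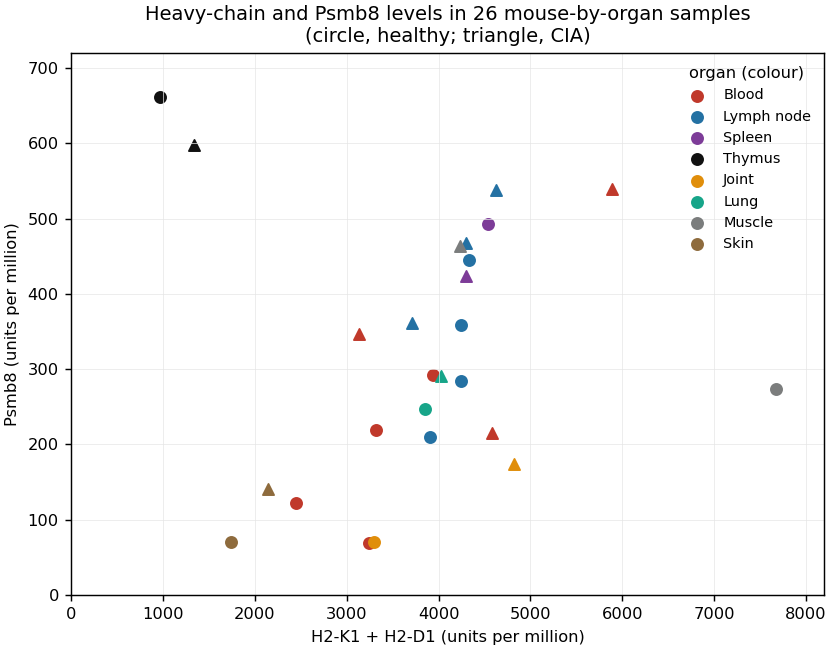
Psmb8 against the sum of H2-K1 and H2-D1 (UPM) in the 26 mouse-by-organ samples, marked by organ and state. The 2 thymus samples lie apart at the upper left, with Psmb8 at 662 and 599 UPM beside the lowest heavy-chain sums.

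The remaining members were low and less even. Tap2, one chain of the peptide transporter, was 152 UPM in the thymus of H6 and 162 UPM in that of S1, and the next highest was 108 UPM in the lymph node of H3. It was listed at 0 in both lung and both skin samples and in the blood of S6 and S7. Tap1, the other chain, was highest in the spleen of S1 with 117 UPM and in the lymph node of S1 with 82.7 UPM. Tapbp was lowest in the blood of H3, at 0, and in the thymus of H6, at 13.8 UPM, and highest in the muscle of S1 at 182 UPM. Psmb9, the subunit that replaces Psmb6, reached 195 UPM in the spleen of S1 and 180 UPM in the lymph node of S7. Nlrc5 was above 0 in 7 of 7 lymph node samples (24.2 to 62.3 UPM) and both spleens (28.4 and 31.1 UPM), and listed at 0 in both thymus, lung, muscle and skin samples. For Tap1, Tap2, Tapbp, Psmb8 and Psmb9 no step in the order of organs was larger than the repeat-library spread, which reached 3.32 on the log2 scale for Psmb9.

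**Figure D3:**
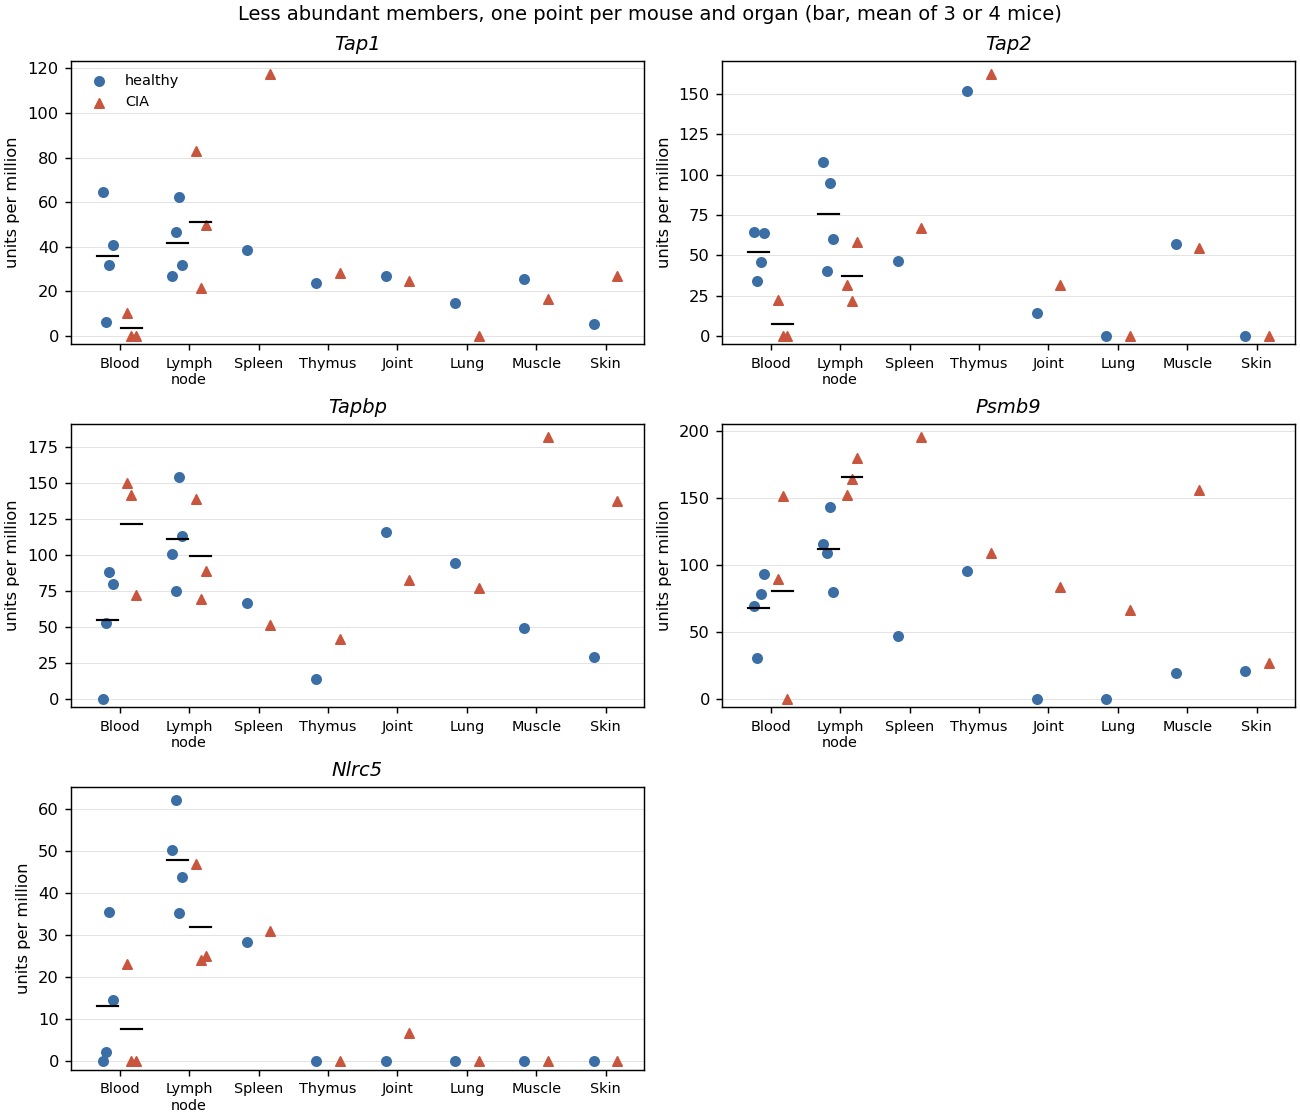
Levels of Tap1, Tap2, Tapbp, Psmb9 and Nlrc5 (UPM, linear axis, each panel on its own scale) by organ, with 1 point per mouse and organ coloured by state. Tap2 is highest in thymus at 152 and 162 UPM, and Nlrc5 is above 0 in every lymph node and spleen sample.

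Across the 26 samples the levels of B2m and H2-D1 moved together (Spearman's rho 0.79), as did those of B2m and H2-K1 (0.67) and of H2-K1 and H2-D1 (0.65). With globin units left out these values were lower, at 0.66, 0.50 and 0.44, and without the thymus samples as well they were 0.57, 0.36 and 0.29. Psmb8 and Psmb9 had a rho of 0.69, and Tap1 and Tap2 of 0.62. Psmb8 had a rho of 0.23 with H2-K1 and 0.22 with H2-D1 over all samples, and of 0.56 and 0.55 over the 24 samples other than thymus. Its rho with B2m was 0.42, and 0.76 without thymus. These points share mice, libraries and organs, and no test was made on them. Among 5004 genes averaging 25 UPM or more, those most like H2-K1 outside the pathway lists were H2-K2 (0.77), Gm10499 (0.67) and H2-T-ps (0.64). Most like H2-D1 were Gm10499 (0.78), Gm8909 (0.76) and Sp140 (0.76). For B2m they were Sp140 (0.70), Ifi27l2a (0.67) and Tmsb10 (0.66). H2-K2 and H2-T-ps are themselves class I-like rows whose reads may be shared with the members.

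The balance of the 2 classical rows also differed between organs. The ratio of the H2-D1 to the H2-K1 row ran from 1.80 in a thymus to 4.38 in a CIA blood sample, with a median of 2.66. It was 3.02 to 4.38 in blood and 2.05 to 2.95 in lymph node, without overlap between mice. Single libraries did overlap, since one blood library of H4 gave 2.54, and the pair of libraries of the S1 joint gave 1.84 and 3.38. This ratio, like the others in this account, was chosen after the levels had been seen, and it does not depend on the scaling to a total. In the 6 mice with both organs it was 3.44 ± 0.492 (SD) in blood and 2.40 ± 0.345 in lymph node and was lower in lymph node in 6 of 6 mice. The mean log2 difference was −0.52 (SD 0.39), with a two-sided exact permutation p of 0.0313, the smallest that 6 pairs allow, and 0.0938 after adjustment over 3 ratios. The difference therefore did not pass the adjusted threshold.

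Within blood the same ratio was 3.02, 3.03, 3.06 and 3.44 in the healthy mice and 3.93, 4.14 and 4.38 in the CIA mice. The groups did not overlap, with means of 3.14 ± 0.204 (SD, n = 4) and 4.15 ± 0.224 (SD, n = 3) and a two-sided exact permutation p of 0.0286, which is the smallest that 4 against 3 mice allow and 0.0857 after adjustment over 6 comparisons. The pair of libraries of healthy mouse H4 gave 3.71 (suffix CIA) and 2.54 (suffix 2CIA), both below the CIA blood samples. Summed neutrophil markers were 1363 to 5434 UPM in the healthy and 5235 to 73890 UPM in the CIA blood libraries. In blood barcodes led by neutrophil markers H2-D1 was 6822 UPM (H7), 2634 UPM (S2) and 4997 UPM (S7) beside 925, 466 and 1404 UPM of H2-K1, and the part of these barcodes in the ratio was not tested. In lymph node the direction was opposite, with 2.56 ± 0.312 (SD, n = 4) in healthy and 2.17 ± 0.139 (SD, n = 3) in CIA mice, and the groups overlapped (exact permutation p = 0.114, adjusted 0.171). The summed heavy chains relative to B2m were 2.92 ± 0.432 (SD, n = 4) in healthy and 2.06 ± 0.330 (SD, n = 3) in CIA blood (exact permutation p = 0.0286, adjusted 0.0857), again without overlap and again short of the adjusted threshold. Neither blood ratio thus passed after adjustment.

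**Figure D4:**
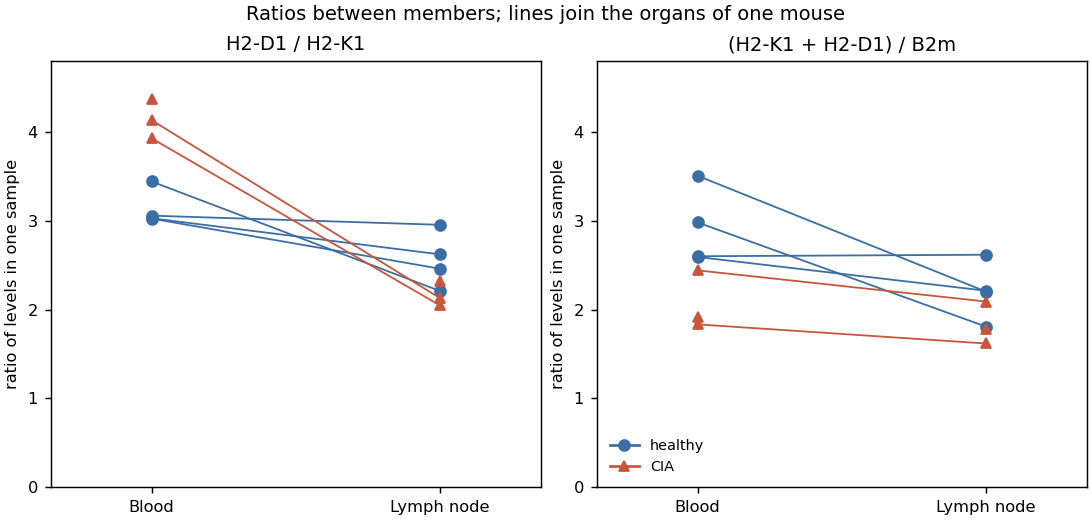
The ratio of the H2-D1 to the H2-K1 row (left) and of both rows together to B2m (right) in blood and lymph node, on linear axes with 1 point per mouse coloured by state and a line joining the organs of a mouse. In blood the H2-D1 to H2-K1 ratio is 3.02 to 3.44 in healthy and 3.93 to 4.38 in CIA mice.

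To ask which members differ between organs without disease, lymph node was compared with blood in the 4 healthy mice. In blood, H2-K1 was 805, 552, 818 and 978 UPM in H3, H4, H6 and H7, and in lymph node it was 1173, 1216, 1094 and 1227 UPM. B2m was 924, 946, 1114 and 1514 UPM in blood and 1928, 1765, 2393 and 1622 UPM in lymph node. For both genes every lymph node lay above every blood sample, which held for 5.96% of 5015 genes. For B2m this rests on the sum of the H4 pair, since one of its lymph node libraries had 1491 UPM, below the blood of H7. Without globin units both overlapped, since H4 blood then had 1159 UPM of H2-K1 and 1987 UPM of B2m.

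No member passed the test across genes (limma on log2 of the scaled value plus 10, adjusted p under 0.05), against 0.0401% of 4990 genes, which were Gzma and Il1b, both lower in lymph node. Nlrc5 had the smallest p of the members and was the 1 member, of 742 genes, with an unadjusted p under 0.05, at 0, 2.26, 35.6 and 14.7 UPM in the blood of H3, H4, H6 and H7 and 50.4, 62.3, 35.2 and 43.8 UPM in their lymph nodes. Its log2 difference was 1.34 (SE 0.62, 95% interval 0.01 to 2.67, limma adjusted p = 0.331). Its mean in blood was under the filter of 25 UPM, so Nlrc5 was tested only because of its lymph node level, and nothing is read from this difference. The difference for B2m was 0.45 (SE 0.39), for Psmb8 0.63 and for Tapbp 0.85, and without H3, whose blood library had 27 barcodes, these were 0.14, 0.022 and 0.046. The difference for H2-D1 was −0.03, which turned to 0.31 when samples were scaled to their total only. The median over the 9 members was 0.41, beside 0.09 over all genes tested. With the mouse as a block, 9 genes were called in place of 2 and again no member (smallest adjusted p of a member 0.424).

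To ask whether disease shifts the pathway in circulating cells, blood of CIA and healthy mice was compared. B2m was 924, 946, 1114 and 1514 UPM in healthy H3, H4, H6 and H7 and 1709, 3075 and 1877 UPM in the CIA mice S2, S6 and S7. All CIA mice were above all healthy mice, and this was also so without globin units, though only narrowly, with 1987 UPM in H4 against 1997 UPM in S7. A gap of that kind with CIA higher was present for 4.96% of 4416 genes. The mean was 1124 ± 273 UPM (SD, n = 4) in healthy and 2220 ± 745 UPM (SD, n = 3) in CIA mice.

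In the fit, B2m differed by 0.35 on the log2 scale (SE 0.60, 95% interval −0.87 to 1.57, adjusted p = 0.853, limma). The median over all genes tested was −0.63 there, and −0.10 with scaling to the total only and −0.37 without globins, so blood differences depend on the scaling. Relative to that median B2m was 0.98 higher. The values of B2m were 0.95 with scaling to the total only and 0.81 without globins.

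H2-D1 was 2437, 1900, 2502 and 2959 UPM in healthy blood and 2496, 4796 and 3690 UPM in CIA blood, and the groups overlapped. Its log2 difference of −0.06 (SE 0.64, 95% interval −1.35 to 1.23) turned to 0.55 with scaling to the total only and 0.40 without globins. H2-K1 was 805, 552, 818 and 978 UPM against 635, 1096 and 892 UPM, and its difference of −0.45 (SE 0.57) turned to 0.14 with scaling to the total only. Psmb8 was 69.0, 122, 219 and 292 UPM in healthy and 347, 539 and 216 UPM in CIA blood, a difference of 0.52 (SE 0.68). Psmb9 was 69.0, 30.1, 78.2 and 92.9 UPM in healthy and 89.0, 151 and 0 UPM in CIA blood, the 0 being that of S7. Neither subunit separated the groups.

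The transporter genes had lower values in CIA blood without passing the test. Tap2 was 64.4, 33.8, 45.9 and 63.8 UPM in healthy blood and 22.1 UPM in S2, and it was listed at 0 in S6 and S7. The mice of both states did not overlap, as with 6.00% of 4416 genes in that direction, and the difference was −2.03 (SE 1.02, 95% interval −4.08 to 0.03, limma adjusted p = 0.495). Tap2 passed the filter only through the healthy group, so nothing is read from that difference. Tap1 was 64.4, 6.15, 31.8 and 40.8 UPM against 10.2 UPM in S2 and 0 in S6 and S7, and since its mean was under the filter of 25 UPM it was tested alone (two-sided exact permutation p = 0.0857). Single libraries of both states overlapped, since the library of healthy H4 with the suffix 2CIA, which all CIA blood libraries carry, also listed Tap1 and Tap2 at 0. That library listed 2495 genes above 0, those of S6 and S7 2705 and 3554 and that of S2 9270, and the part of this in the zeros of both transporter genes was not tested. Tapbp was 0, 52.5, 88.0 and 79.8 UPM against 150, 142 and 72.4 UPM. Nlrc5, also under the filter, was above 0 in S2 alone of the CIA mice, at 23.2 UPM (exact permutation p = 0.743).

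Of the 7 members that passed the filter on low values in blood, 0 were called, against 0.0625% of 4803 genes, which were Ifi27l2a, Ifitm3 and Retnlg, all higher in CIA. Before adjustment, 488 of all genes and 0 members had a p under 0.05 (limma). The smallest adjusted p of a member in blood over all the alternative settings was 0.0757. The cell make-up of the blood samples moved with the state. The summed monocyte and macrophage markers were 42.9 to 248 UPM in healthy and 542 to 1959 UPM in CIA libraries, and the neutrophil markers were given above. Their part in the member differences was not tested.

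Lymph node gave tighter values. H2-D1 was 3075, 2688, 3233 and 3018 UPM in H3, H4, H6 and H7 and 3003, 2495 and 3149 UPM in S1, S2 and S7, a difference of −0.03 (SE 0.17, 95% interval −0.39 to 0.33), which was 0.01 among libraries of suffix 2CIA. H2-K1 was 1173, 1216, 1094 and 1227 UPM against 1295, 1219 and 1478 UPM, a difference of 0.21 (SE 0.21). B2m was 1928, 1765, 2393 and 1622 UPM against 2417, 2297 and 2214 UPM, a difference of 0.31 (SE 0.18). The intervals of these 3 genes allowed a change of either sign, and that of H2-D1 stayed within 0.39 either way.

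Psmb9 was the member whose lymph node values separated the states, with 116, 108, 143 and 79.6 UPM in healthy mice and 152, 164 and 180 UPM in CIA mice. The means were 112 ± 26.1 UPM (SD, n = 4) and 165 ± 14.0 UPM (SD, n = 3), and 2.78% of 5081 genes showed such a gap with CIA higher. Over distinct profiles the gap closed, with 136 UPM in S1 and 140 UPM in H6, and one library of S7 (138 UPM) lay below one of H4 (149 UPM). The difference was 0.58 (SE 0.31, limma adjusted p = 0.970). Psmb8 was 358, 210, 445 and 284 UPM against 467, 361 and 538 UPM, with overlap and a difference of 0.55 (SE 0.30, adjusted p = 0.970). Tap2 differed by −0.82 (SE 0.41, adjusted p = 0.970), with 108, 40.4, 95.0 and 59.9 UPM in healthy and 31.5, 21.8 and 58.4 UPM in CIA mice, and by 0.51 among libraries of suffix 2CIA. For Tap1, Tapbp and Nlrc5 the differences were 0.18, −0.12 and −0.46. Of 9 members tested 0 were called, against 0.0197% of 5064 genes, which was Ifi27l2a, an interferon-induced gene that was higher in CIA by 2.58 (SE 0.34, adjusted p = 0.00346, limma). Before adjustment, 210 of all genes and 0 members had a p under 0.05 (limma). Ifi27l2a was also one of the 3 genes called in blood.

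Whether the state difference itself differed between the organs was tested as an interaction over blood and lymph node. No member was called, and 0.00% of 4857 genes were, with 409 at an unadjusted p under 0.05 and none of them a member. The largest value among the members was 1.78 for Tap1 (SE 0.93), whose state difference was 0.18 in lymph node and −1.66 in blood. Tap1 was under the filter in blood alone and entered this fit through its lymph node levels, so nothing is read from that value. When mouse was added as a block, the call of 1 gene was made and again none of a member, the smallest adjusted p of a member being 0.917.

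**Figure D5:**
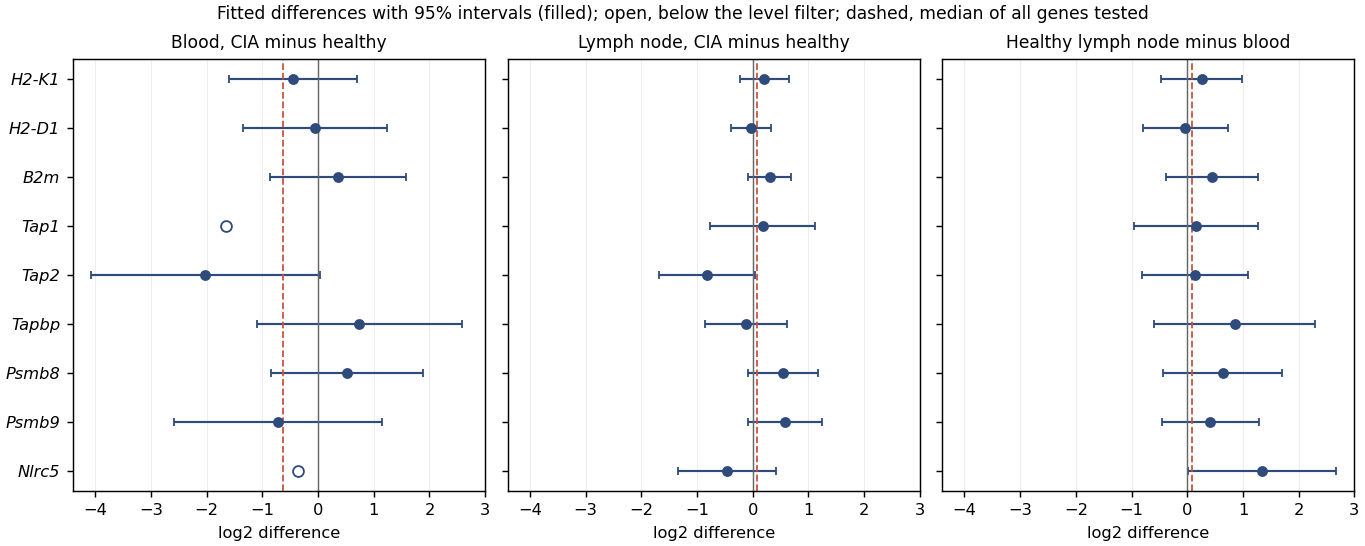
Log2 differences of the members with 95% intervals from limma, for CIA against healthy in blood and in lymph node and for healthy lymph node against healthy blood, with open circles for members under the filter and a dashed line at the median of all genes tested. Blood intervals are wide, that of H2-D1 running from −1.35 to 1.23, and in lymph node the same gene lies between −0.39 and 0.33.

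In the 6 organs with 1 mouse per state the values stand without a test, and a 2-fold difference was common among all genes. Psmb9 was 46.5 UPM in the spleen of H6 and 195 UPM in that of S1. In joint it was listed at 0 in H3 and 83.7 UPM in S1, in lung at 0 in H6 and 66.1 UPM in S1, and in muscle it was 19.2 and 156 UPM. In thymus it was 95.5 and 109 UPM, and in skin 20.8 and 26.8 UPM. Psmb9 was thus past 2-fold higher in S1 in spleen, joint, lung and muscle. Where H3 or H6 had it at 0, it could only be higher in S1. All of these organs came from the same CIA mouse, and the joint value rests on the larger of its libraries, since the smaller listed Psmb9 at 0. In spleen the neutrophil markers summed to 4477 UPM in H6 and 98978 UPM in S1 and the erythroid markers to 519 and 91915 UPM, and their part in the Psmb9 and Tap1 values was not tested.

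Over genes with at least 50 units in an organ, and on the log2(UPM + 10) scale, 2 of 9 members differed at least 2-fold between the states in spleen (Tap1 and Psmb9), beside 42.0% of 9727 genes. In thymus it was 1 of 8 (Tapbp) beside 22.6%, in joint 2 of 9 (Psmb8 and Psmb9) beside 40.9%, and in lung 1 of 6 (Psmb9) beside 42.6%. In muscle it was 3 of 8 (Tapbp, Psmb9 and H2-K1) beside 60.7%, and in skin 2 of 6 (B2m and Tapbp) beside 29.0%. H2-K1 in muscle was the one that was lower in CIA. In skin both members were higher in CIA, as were 967 of the 7437 genes, with 1187 genes lower. Over distinct profiles the difference of B2m in skin was 0.92 on the log2 scale and so under 2-fold. Fibroblast markers summed to 4571 UPM in the skin of H6 and 17081 UPM in that of S1, and keratinocyte markers to 4854 and 2073 UPM. Their part in the B2m and Tapbp values of skin was not tested. Some members passed the minimum of 50 units only through S1. These were Tap1 and Nlrc5 in spleen, Tap2, Psmb9 and Nlrc5 in joint, and Tapbp and Psmb9 in lung. Tap1 and Tap2 in muscle passed only through H6, so nothing is read from these counts.

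Joint is the organ that arthritis affects. There H2-K1 was 798 UPM in H3 and 1132 UPM in S1, H2-D1 2503 and 3691 UPM, and B2m 1072 and 1964 UPM. Psmb8 was 70.2 and 173 UPM. The S1 joint was a pair of libraries, of which the smaller, with 20 distinct profiles, had 2237 UPM of H2-D1, below H3, and the larger 3800 UPM. The smaller library also listed Tap1, Tap2, Tapbp and Psmb9 at 0, and its Psmb8 was 460 UPM beside 152 UPM in the larger.

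The muscle library of H6 went against its label in part, and the lung libraries differed in how much lung signal they held. In the muscle library of H6 the summed skeletal muscle markers were 69.3 UPM, with 3 of 8 above 0, and neutrophil markers reached 106910 UPM with all 10 B-cell and all 12 T-cell markers above 0. The muscle library of S1 had 5254 UPM of skeletal muscle markers, with 8 of 8 above 0. H2-D1 was 5350 UPM in the former and 3089 UPM in the latter, and H2-K1 2321 and 1149 UPM, so the highest heavy-chain levels of the series came from a library with almost no muscle signal. Lung epithelium markers were 22196 UPM in H6 and 2405 UPM in S1, where B2m was 1380 and 2481 UPM. The part of these differences in the member values was not tested.

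Other genes of the pathway, from lists chosen by function, gave no call either. The lists held 24 further class I heavy chains, 10 genes of the loading complex and peptide trimming, 5 of the proteasome cap and of immunoproteasome assembly, 3 constitutive proteasome subunits and 21 of interferon gamma and class I regulation. In each of the 4 comparisons 0 of those tested were called (limma), with 0 to 4 genes of a list at an unadjusted p under 0.05, and the percentages of all genes called are those given above. In blood the tested heavy chains (11 of 24) had a median of −0.32 and the regulators (12 of 21) of −0.83, beside −0.63 over all genes. Creb1, a factor that binds X2 elements, was 57.2 ± 19.9 UPM (SD, n = 4) in healthy blood. It was listed at 0 in the 3 CIA mice (limma adjusted p = 0.376). Nfyb, of the factor that binds the Y element, was 43.7 ± 13.8 UPM and likewise 0 (limma adjusted p = 0.407). Both passed the filter only through the healthy group, so nothing is read from these differences. A gap of that kind with CIA lower was present for 6.00% of 4416 genes. The peptide-loading chaperone Calr was 109 ± 14.3 UPM and 44.2 ± 49.1 UPM.

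In lymph node the smallest p of the lists was that of Irf9. This gene, which carries interferon signals to promoters, was 23.1 ± 31.3 UPM (SD, n = 4) in healthy and 93.4 ± 31.4 UPM (SD, n = 3) in CIA mice. The groups overlapped, and the difference was 2.15 (SE 0.64, limma adjusted p = 0.961). The healthy mean of Irf9 was under the filter of 25 UPM. It was thus tested only because of its CIA level, and nothing is read from this difference. Between the healthy organs the proteasome genes Psmb10 (41.3 ± 41.6 UPM in blood and 117 ± 19.4 UPM in lymph node) and Psme1 (86.3 ± 48.9 and 206 ± 33.2 UPM) had log2 differences of 1.40 and 0.96, with limma adjusted p of 0.318 for each. In the opposite direction, Irf9 was 64.8 ± 33.8 UPM in blood and 23.1 ± 31.3 UPM in lymph node, and Irf2 was 172 ± 59.6 and 94.0 ± 28.3 UPM. Their log2 differences were −1.83 and −1.11, with limma adjusted p of 0.261 and 0.276. Irf9 was under the filter in lymph node and was tested only because of its blood level, so nothing is read from its difference. The smallest p of the lists was that of the heavy chain H2-Q1, with means of 13.2 UPM in blood and 68.5 UPM in lymph node. The difference of H2-Q1 was 1.67 (SE 0.60, limma adjusted p = 0.257). Its mean in blood was under the filter of 25 UPM, so H2-Q1 was tested only because of its lymph node level. Nothing is read from that difference. In the organs with 1 mouse per state, the list genes past 2-fold higher in CIA were 8 of 51 in spleen (24.6% of all genes), 8 of 50 in joint (23.8%) and 2 of 51 in thymus (11.4%). Genes past 2-fold lower were most frequent in muscle, with 13 of 44 (39.2% of all genes). Psmb10 was 7.66 UPM in the skin of H6 and 124 UPM in that of S1, a log2 difference of 2.92 that was 1.18 over distinct profiles. Psme2 was 37.7 and 285 UPM in lung, and Ifngr1 was 51.0 and 385 UPM in muscle. Psmb10 in skin and Psme2 in lung passed the minimum of 50 units only through S1, so nothing is read from their differences. The counts of list genes hold such cases too.

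Levels were also read in barcodes led by 1 list of cell type markers, each given per sample with at least 10 such barcodes and without a test. A barcode counted when at least 3 markers of the list were above 0 and their summed level, with 100 UPM added, was at least 2 times the mean over all barcodes. This limit was set after values were seen, and 2548 of 8282 barcodes (30.8%) were led by no list, 773 of them just under the limit. Smoothing mixes neighbouring cells, and B-led barcodes for example had a median of 29178 UPM of erythroid markers, so these are ranges and not pure cell types. Dendritic-led barcodes had 3101 to 6443 UPM of H2-D1 (median 4031, 7 samples), monocyte- and macrophage-led barcodes 2787 to 5744 UPM (median 3908, 8 samples) and B-led barcodes 2514 to 7010 UPM (median 3430, 14 samples). Fibroblast-led barcodes had 1340 to 3482 UPM (median 2265, 5 samples). The ranges overlapped between these classes.

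Between these classes and neutrophil-led barcodes the medians of Psmb8 lay further apart in proportion. Neutrophil-led barcodes had 0 to 272 UPM of Psmb8 (median 122, 7 samples) and fibroblast-led barcodes 7.36 to 115 UPM (median 55.6, 5 samples), whereas dendritic-led barcodes had 268 to 895 UPM (median 387, 7 samples). The neutrophil-led barcodes had this little Psmb8 at a median of 3032 UPM of H2-D1. Monocyte- and macrophage-led barcodes had 120 to 873 UPM of Psmb8 (median 399, 8 samples). B-led barcodes had 120 to 596 UPM (median 299, 14 samples). Both ranges overlapped with that of neutrophil-led barcodes. Of T-led barcodes, those of thymus had 633 UPM (H6) and 827 UPM (S1) of H2-D1, and those of lymph node 1878 UPM (H3), 4040 UPM (H6) and 2942 UPM (S7). The same thymus barcodes had 761 and 643 UPM of Psmb8, and those of lymph node 166, 596 and 531 UPM. Thymocyte-led barcodes of thymus had 629 and 943 UPM of H2-D1 beside 600 and 481 UPM of Psmb8. H2-D1 was below the T-led barcodes of lymph node in thymus barcodes led by either list, whereas the Psmb8 values of thymocyte-led barcodes overlapped with those of lymph node. Nearly all thymus barcodes were led by one of these lists, so they restate the thymus sums.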

How the data were processed

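The authors made Seq-Well libraries, aligned reads to GRCm38 with STAR, collapsed molecular identifiers with the Drop-seq tools and smoothed the pilot cells over nearest neighbours. The submitters' processing notes also name other builds. The deposited values are whole-number signal per gene and barcode after that smoothing and are no counts: 8282 barcodes held 4590 distinct profiles. Depth per cell is therefore unknown, and no counting interval was given. Symbols were found for 21404 rows, and rows without one held 3.39% of units.

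Libraries of a mouse and organ were summed, since mice are separate animals. For tests, samples were scaled by a trimmed mean of log ratios, genes averaging under 25 UPM were dropped, and limma 3.58.1 (R 4.3.3) was run on log2(value + 10) with a mean-variance trend, two-sided, with Benjamini-Hochberg adjustment over all genes and calls at an adjusted p under 0.05. The scale understates changes of low genes. No count model was used. Groups came from the titles. Blood and lymph node of 6 mice are paired by animal, and same-mouse deviations correlated at −0.29 to 0.17. Members under the filter had an exact permutation test, which cannot go below 0.0286 for 4 against 3 mice. The fits were tested on simulated data. Alternatives covered scaling, pseudocount, filter, globins, trend, distinct profiles, suffix, repeat libraries, the mouse block and leaving out each mouse. The members were named with every comparison, beside the 2 genes of each list with the smallest p, the 3 genes most like each of H2-K1, H2-D1 and B2m outside the lists, and, in organs with 1 mouse per state, up to 5 list genes past 2-fold. Not every gene this rule names is reported here. Members and lists were chosen with earlier results of these data known.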

Additional observations from a re-analysis of the deposited data

Results flagged for a closer look

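In 42 groups of 4 to 10 samples of a member's level or ratio, 2 values stood far from the rest of their group by Dixon's criterion, which chance alone meets in about 1 of 20 groups. Tapbp was listed at 0 in the blood of healthy mouse H3 when globin units were left out, whereas the other 3 healthy mice had 91.4 to 110 UPM. That library had 27 barcodes and 7 distinct profiles. The ratio of the H2-D1 to the H2-K1 row was 3.44 in the blood of healthy mouse H4, and the others had 3.02 to 3.06. H4 is the healthy blood sample made of a pair of libraries, whose ratios were 3.71 and 2.54.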

How the results depend on the processing

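No member was called in any comparison under any alternative. The number of all genes called in blood, 3, was 16 with scaling to the total only, 11 with median-of-ratios scaling or without globins, 0 with a pseudocount of 1 or without the trend, 12 with no filter, 5 over distinct profiles, 6 in suffix 2CIA and 23 with every library its own sample. In lymph node, 1 became 9 with no filter, 0 without the trend and 3 in suffix 2CIA. Between the healthy organs, 2 became 0 with a pseudocount of 1 or in suffix 2CIA, 13 with no filter and 1 without the trend. With the replicate block of paired organs, it became 9, and the interaction went from 0 to 1; the block called no member.

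Blood differences changed sign for H2-K1 (0.14 with scaling to the total only, 0.072 in suffix 2CIA), H2-D1 (0.55 with scaling to the total only, 0.26 with median-of-ratios scaling, 0.40 without globins, 0.65 in suffix 2CIA, 0.22 with every library its own sample) and Psmb9 (1.18 in suffix 2CIA). In lymph node they did for H2-D1 (0.011 in suffix 2CIA, 0.053 with every library its own sample), Tap2 (0.51 in suffix 2CIA) and Tapbp (0.45 and 0.046 in those settings). The interaction of Nlrc5 became 0.63 with a pseudocount of 1 and 0.056 over distinct profiles. Between the healthy organs H2-D1 became 0.31 with scaling to the total only, 0.0045 over distinct profiles and 0.13 in suffix 2CIA, and Tap1 became −0.081 over distinct profiles. The cause of these changes was not tested.

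Leaving out 1 mouse gave 0 (without H6 or S2) to 11 (without S6) calls in blood, 0 (without S7) to 7 (without H3) in lymph node and 0 to 3 between the healthy organs. In blood H2-K1 then ran from −0.87 to −0.11, Tapbp from 0.017 to 1.21, H2-D1 from −0.44 to 0.25, B2m from −0.11 to 0.67, Psmb8 from −0.095 to 1.05 and Psmb9 from −1.68 to 0.46, the lower ends without S2. In lymph node H2-D1 ran from −0.14 to 0.082, Tap1 from −0.17 to 0.61 and Tapbp from −0.36 to 0.088. The interaction ran from −0.80 to 0.28 for Psmb8, −0.093 to 1.93 for Psmb9 and −0.54 to 0.72 for Nlrc5. Between the healthy organs H2-D1 ran from −0.26 to 0.20, Tap1 from −0.20 to 0.43 and Tap2 from −0.13 to 0.46. Few mice, libraries with few distinct profiles and the unknown suffix limit these values.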
